A study of Mus musculus with 6 samples.

Results

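The p53 pathway was followed through 10 mouse genes: Trp53, which encodes p53, its inhibitors Mdm2 and Mdm4, and the target genes Ccng1, Bax, Perp, Zmat3, Trp53inp1, Phlda3 and Plk2. Every probe set to which the platform annotation gives 1 of these symbols alone was taken, which gave 17 of 45101 probe sets for 8 of the 10 genes. No probe set bore the symbol Trp53 or Bax alone in the annotation used here, so both genes were not analysed here. Expression was measured in NIH3T3, an immortalised mouse embryonic fibroblast line, on 3 arrays of tethered and 3 arrays of untethered cells. In tethered cells the genomic insertion lay at the nuclear periphery, and in untethered cells it was centrally disposed. Both groups belonged to a single clone, clone M, with multiple lacO insertions (arrays of the lac operator, which the lac repressor binds). The labels name no tethering protein and no drug, and give both groups the same medium with 10% serum and growth to about 80% confluency.

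p53 is a transcription factor that damaged DNA and other stresses stabilise, and it switches on genes for cell cycle arrest, repair and cell death. Mdm2 is a ubiquitin ligase that marks p53 for destruction and is itself a p53 target, so the pair forms a feedback loop. Mdm4 is a relative of Mdm2 that binds the activation domain of p53 and blocks it. NIH3T3 cells are known to lack the Ink4a/Arf locus (Cdkn2a), whose Arf product restrains Mdm2.

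The promoter windows of the 4 measured genes below show where a match to the p53 half-site lies in Mdm2 and Ccng1, and that none was found in Plk2 and Phlda3. The Phlda3 window ends within a possible match, which its edge cuts off and which was not scored. The sequences are from RefSeq (GRCm38.p6) and run from 250 bases before to 50 bases after the annotated start, 5' to 3' on the gene's strand. Capitals mark the 10-base p53 half-site or, in Plk2, the cAMP response element TGACGTCA. A full p53 response element is a pair of half-sites, and full elements were not searched for.
Mdm2, chr10:117710709-117711008, minus strand: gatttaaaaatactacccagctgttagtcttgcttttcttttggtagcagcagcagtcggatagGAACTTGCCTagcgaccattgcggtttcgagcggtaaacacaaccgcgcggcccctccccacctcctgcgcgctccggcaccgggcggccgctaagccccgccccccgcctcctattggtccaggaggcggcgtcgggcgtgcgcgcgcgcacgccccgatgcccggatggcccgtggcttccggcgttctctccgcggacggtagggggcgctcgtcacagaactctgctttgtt
Ccng1, chr11:40755237-40755536, minus strand: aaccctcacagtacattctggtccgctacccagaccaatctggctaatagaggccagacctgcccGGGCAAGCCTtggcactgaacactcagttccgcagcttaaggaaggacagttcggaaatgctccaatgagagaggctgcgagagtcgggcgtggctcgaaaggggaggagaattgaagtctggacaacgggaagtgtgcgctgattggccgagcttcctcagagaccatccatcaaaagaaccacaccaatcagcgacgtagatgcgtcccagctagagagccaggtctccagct
Plk2, chr13:110394794-110395093, plus strand: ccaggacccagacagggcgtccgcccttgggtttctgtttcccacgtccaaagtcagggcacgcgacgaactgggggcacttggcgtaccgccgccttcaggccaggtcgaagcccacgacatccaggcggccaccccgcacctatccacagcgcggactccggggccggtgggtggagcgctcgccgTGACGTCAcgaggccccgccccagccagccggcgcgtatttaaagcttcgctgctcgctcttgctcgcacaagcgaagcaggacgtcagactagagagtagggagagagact
Phlda3, chr1:135765835-135766134, plus strand: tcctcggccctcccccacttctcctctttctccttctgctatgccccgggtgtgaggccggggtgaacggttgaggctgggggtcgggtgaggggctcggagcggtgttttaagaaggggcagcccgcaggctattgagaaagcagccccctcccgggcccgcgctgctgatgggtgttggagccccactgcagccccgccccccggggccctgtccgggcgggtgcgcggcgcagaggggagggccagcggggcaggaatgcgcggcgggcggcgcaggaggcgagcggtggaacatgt
Both strands were searched for the p53 half-site, for TGACGTCA and for the CArG box of serum response factor, with no mismatch allowed. Of the 10 genes, 7 had a promoter entry; Perp, Zmat3 and Trp53inp1 did not. A half-site match lay in the windows of 4 genes, Mdm2, Ccng1, Trp53 and Bax, and 8.36% of 32544 promoter windows of all genes held one. The match began 186 bases before the start in Mdm2 and 185 bases before it in Ccng1. The p53-responsive promoter of Mdm2 is known to lie in its first intron, outside this window. TGACGTCA lay 62 bases before the start of Plk2 and in 1.8% of all windows, while no member window matched the CArG box (1.64% of all windows). Such a match describes letters and is no evidence of binding.

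Levels are given here as log2 of the deposited intensity. Median intensity per array lay between 482.4 and 490.9. Of 10 fibroblast marker genes 9 were bright enough to test. Among them, Pdgfra was brighter than 67.7% of probe sets, Pdgfrb than 86.6%, Col3a1 than 97.5% and Fn1 than 99.5%. Brightness depends on the probes as well as on the RNA. Transferrin receptor 5' minus 3' signal, a measure of RNA quality, was -2.09, -1.67 and -1.55 (log2) on tethered arrays 1, 2 and 3, against -2.81, -3.07 and -1.52 on untethered arrays 1, 2 and 3. The 5' control probe set of 18S RNA stood at 10.94, 10.48 and 10.79 (log2) on tethered arrays 1, 2 and 3. On untethered arrays 1, 2 and 3 it stood at 12.06, 12.16 and 11.15, so the groups did not overlap. The part of RNA quality in differences between the groups was not tested. The labels do not say that arrays of a group came from separate cultures, so p-values measure only the spread between these samples, which may be technical.

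Neither the p53 inhibitors nor the measured p53 targets passed the test between tethered and untethered cells. In bulk RNA of this kind, fewer cells expressing a gene and less RNA per cell cannot be told apart. Limma's linear model tested 14 of the 17 probe sets, those above the median mean signal, and these covered 7 genes; Perp was too dim. After Benjamini-Hochberg adjustment over 22518 probe sets it called 0 of the 14 (0% of all), each with an adjusted p of 0.999. Before adjustment 0 of the 14 had a p under 0.05, against 2.38% of all tested probe sets (160 higher and 376 lower with tethering; 249 higher and 277 lower after quantile normalization). Tethered and untethered values overlapped for all 14, whereas 8.16% of all tested probe sets did not overlap. Values below 0 numbered 8 of 14 (55.9% of all), and the median log2 fold change, tethered minus untethered, was -0.04, against -0.02 for all tested probe sets.

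**Figure D1:**
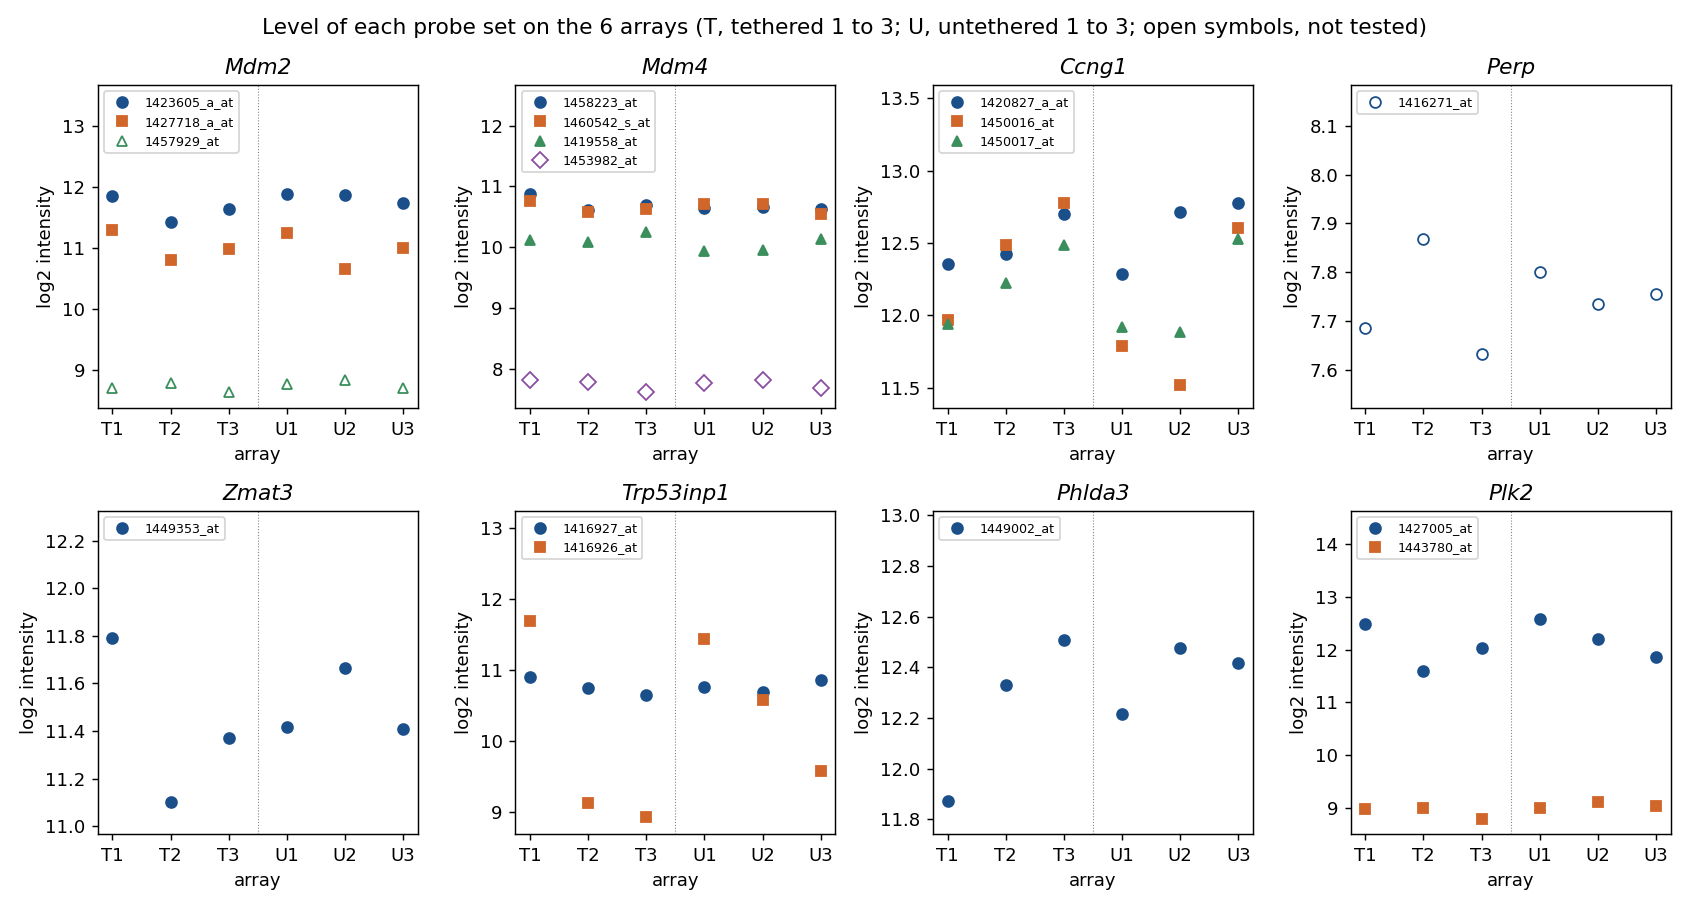
Log2 intensity (vertical axes, scaled per gene) of each of the 17 probe sets on tethered arrays 1 to 3 (T) and untethered arrays 1 to 3 (U). Points are single arrays; filled symbols were tested and open ones were too dim; within each tested probe set the T and U points overlap.

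Of the inhibitors, Mdm2 was read by 3 probe sets. The brightest (1423605_a_at) stood at 11.85, 11.42 and 11.63 in tethered cells, against 11.88, 11.86 and 11.74 in untethered cells. Tethered replicates 2 and 3 lay below all untethered arrays, and tethered replicate 1 lay among them. Its log2 fold change was -0.19 (SE 0.12; 95% interval -0.49 to 0.10), and it ran from -0.30 to -0.09 with 1 array left out. The next probe set (1427718_a_at) stood at 11.30, 10.79 and 10.97 in tethered cells, against 11.24, 10.65 and 11.00 in untethered cells. Here arrays 1 of both groups were highest and arrays 2 lowest, and the log2 fold change was 0.06 (SE 0.19; interval -0.41 to 0.52). The dim Mdm2 probe set 1457929_at lay between 8.62 and 8.78 in tethered cells and between 8.69 and 8.83 in untethered cells.

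The probe sets whose array pattern was most like the brightest one of Mdm2 belonged to Pisd-ps3, Atp6v1e1 and Atg9a. Their root mean square differences from it were 0.016, 0.028 and 0.030 (log2, each centred on its mean over 6 arrays). All 3 shared with it a low value in tethered replicate 2, between -0.30 and -0.27 from the mean. They were picked for likeness to the Mdm2 pattern, so this shared low value followed from the choice.

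Mdm4 varied little between arrays. Its probe set 1419558_at stood at 10.11, 10.08 and 10.25 in tethered cells, against 9.93, 9.96 and 10.13 in untethered cells. The log2 fold change was 0.14 (SE 0.086; interval -0.07 to 0.35), with tethered 1 and 2 just below untethered 3. The other tested probe sets, 1458223_at and 1460542_s_at, stood at 0.08 (SE 0.083; interval -0.12 to 0.29) and 0.001 (SE 0.083; interval -0.20 to 0.20). The range over 6 arrays of all 3 lay between 0.21 and 0.31 (log2), below the median range of all tested probe sets, 0.34. The fourth, 1453982_at, was too dim to test and lay between 7.61 and 7.81 in tethered cells and between 7.68 and 7.81 in untethered cells.

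Among the targets, Ccng1 encodes cyclin G1, which brings the phosphatase PP2A to Mdm2, and its 3 probe sets differed in pattern. Probe set 1420827_a_at stood at 12.36, 12.42 and 12.70 in tethered cells, against 12.29, 12.71 and 12.78 in untethered cells. Probe set 1450016_at stood at 11.97, 12.49 and 12.78 in tethered cells, against 11.79, 11.52 and 12.61 in untethered cells. Probe set 1450017_at stood at 11.94, 12.22 and 12.49 in tethered cells, against 11.92, 11.88 and 12.53 in untethered cells. Untethered replicate 2 was the lowest array on the last pair and the second highest on the first. The log2 fold changes were -0.10 (SE 0.16; interval -0.49 to 0.30), 0.44 (SE 0.33; interval -0.37 to 1.25) and 0.11 (SE 0.22; interval -0.43 to 0.65), in that order. Without untethered replicate 2, the value of 1450016_at was 0.21, and without untethered replicate 3 it was 0.76.

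The gap between 2 Ccng1 probe sets, 1450016_at minus 1420827_a_at, was -0.39, 0.07 and 0.07 on tethered arrays 1, 2 and 3, against -0.50, -1.19 and -0.17 on untethered arrays 1, 2 and 3. The gap between the 2 brighter Mdm2 probe sets, 1427718_a_at minus 1423605_a_at, was also lowest on untethered replicate 2, at -1.21, and lay between -0.74 and -0.56 on the other 5 arrays. That array had the lowest 5' minus 3' signals of transferrin receptor (-3.07), beta-actin (-0.56) and GAPDH (-0.06), and the part of RNA quality in these gaps was not tested.

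Trp53inp1 encodes a stress-induced nuclear protein that promotes the pro-apoptotic activity of p53, and its 2 probe sets gave the widest and 1 of the narrower spreads of the 14. Probe set 1416926_at stood at 11.69, 9.12 and 8.92 in tethered cells, against 11.43, 10.57 and 9.58 in untethered cells. Arrays 1 of both groups were the highest pair, and the range of 2.77 (log2), or 6.80-fold, exceeded that of 99.8% of tested probe sets. Its log2 fold change was -0.62 (SE 0.85; interval -2.69 to 1.45), at -1.51 without tethered replicate 1 and -0.13 without tethered replicate 3. Probe set 1416927_at stood at 10.90, 10.75 and 10.65 in tethered cells, against 10.76, 10.69 and 10.86 in untethered cells. Its groups overlapped within a range of 0.25, with a log2 fold change of -0.003 (SE 0.091; interval -0.22 to 0.22) that turned to 0.04 after quantile normalization. Both probe sets carry the same source accession in the annotation, and the level of only 1 of them differed widely between arrays.

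**Figure D2:**
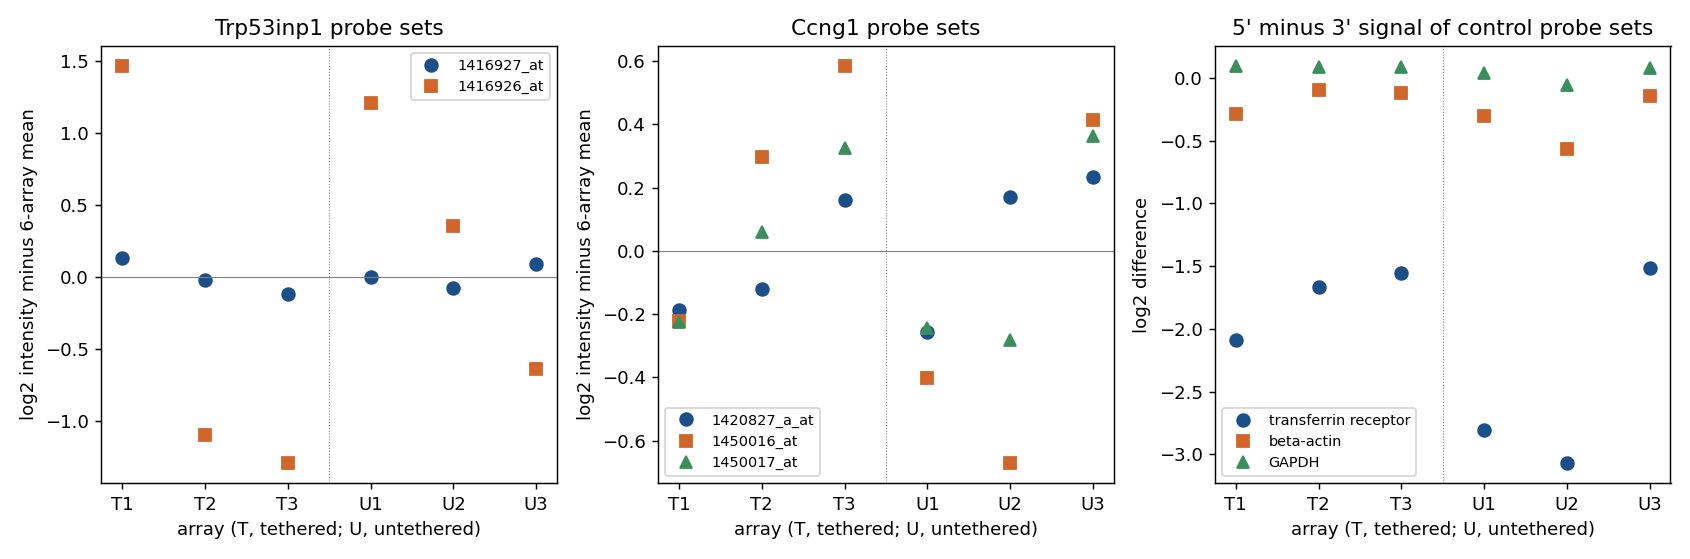
Left and middle, log2 intensity minus the 6-array mean for the tested probe sets of Trp53inp1 and Ccng1; right, log2 5' minus 3' signal of control probe sets; points are tethered arrays 1 to 3 (T) and untethered arrays 1 to 3 (U). Trp53inp1 1416926_at spans 2.77 and 1416927_at spans 0.25, and Ccng1 1450016_at is lowest on U2, where transferrin receptor is at -3.07.

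Plk2 encodes a Polo-like kinase first described as serum-inducible, which acts in centriole duplication. Its bright probe set 1427005_at stood at 12.50, 11.59 and 12.04 in tethered cells, against 12.58, 12.21 and 11.86 in untethered cells. Arrays 1 of both groups were highest and tethered replicate 2 lowest, and the log2 fold change was -0.18 (SE 0.28; interval -0.86 to 0.50), at 0.05 without tethered replicate 2. Its second probe set 1443780_at, close to the filter on dim probe sets, stood at 8.97, 9.0 and 8.78 in tethered cells, against 8.99, 9.10 and 9.04 in untethered cells. There the log2 fold change was -0.13 (SE 0.082; interval -0.33 to 0.07). The serum immediate early list was chosen with earlier results of these data known, so its counts are a description and no independent test. Its runs with arrays left out were added after the data were seen. Of 18 tested serum immediate early genes, 17 had values below 0 (58.8% of all tested genes), with a median of -0.42 (-0.02 for all). Limma called 0 of them, and 5 had an unadjusted p under 0.05 (2.38% of all tested probe sets). Among the 5, Ier3 had the smallest p (limma unadjusted p = 0.0011, adjusted p = 0.999). It stood at 12.46, 12.51 and 12.67 in tethered cells, against 13.24, 13.14 and 12.98 in untethered cells. Klf6 had a log2 fold change of -0.36 (SE 0.12). Fos stood at 8.18, 8.63 and 8.70 in tethered cells, against 11.15, 10.00 and 8.91 in untethered cells. Junb stood at 9.62, 10.01 and 10.29 in tethered cells, against 12.28, 11.03 and 10.44 in untethered cells. Untethered replicate 1 was the highest array for all 5 genes. Without it, 2 of 17 genes had an unadjusted p under 0.05 and the median was -0.34, an alternative chosen after seeing the data. With 1 array left out the count ran from 2 to 7 and the median from -0.56 to -0.26, and without both arrays numbered 1 the median was -0.21. The part of the serum response in the Plk2 values was not tested.

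Phlda3 encodes a pleckstrin-homology protein that competes with the kinase Akt for membrane lipids. It stood at 11.87, 12.33 and 12.51 in tethered cells, against 12.21, 12.48 and 12.42 in untethered cells. Tethered replicate 1 was the lowest array, and the log2 fold change was -0.13 (SE 0.18; interval -0.56 to 0.30), at 0.05 without that array. Zmat3, a zinc-finger RNA-binding protein, stood at 11.79, 11.10 and 11.37 in tethered cells, against 11.42, 11.67 and 11.41 in untethered cells. Both its highest and its lowest array were tethered, and the log2 fold change was -0.08 (SE 0.19; interval -0.53 to 0.38).

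Perp, a membrane protein of desmosomes that also acts in p53-dependent cell death, had a dim probe set, brighter than only 24% of all probe sets. It stood at 7.69, 7.87 and 7.63 in tethered cells, against 7.80, 7.74 and 7.76 in untethered cells, a difference of -0.03 that was smaller than the SD of the tethered arrays (0.12). Perp is an epithelial gene in many tissues, and of 10 epithelial marker genes 4 were bright enough to test. Their brightest probe sets lay above 92.1% (Epcam), 91.2% (Grhl2), 91.1% (Krt14) and 76.0% (Cldn4) of all probe sets, and limma called 0 of the 4. Dimmer probe sets of the same genes lay above 26.6% (Epcam), 38.7% and 27.3% (Krt14), and 84.8%, 23.6% and 13.4% (Grhl2). Of these, only the Grhl2 probe set at 84.8% was bright enough to test, so these genes cannot be called highly expressed from their brightest probe sets. The E-cadherin gene Cdh1, named after its values were seen, lay above 8.01%. The summed intensity of the 20 epithelial probe sets lay between 14693 and 15106 in tethered cells and between 13646 and 14597 in untethered cells.

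**Figure D3:**
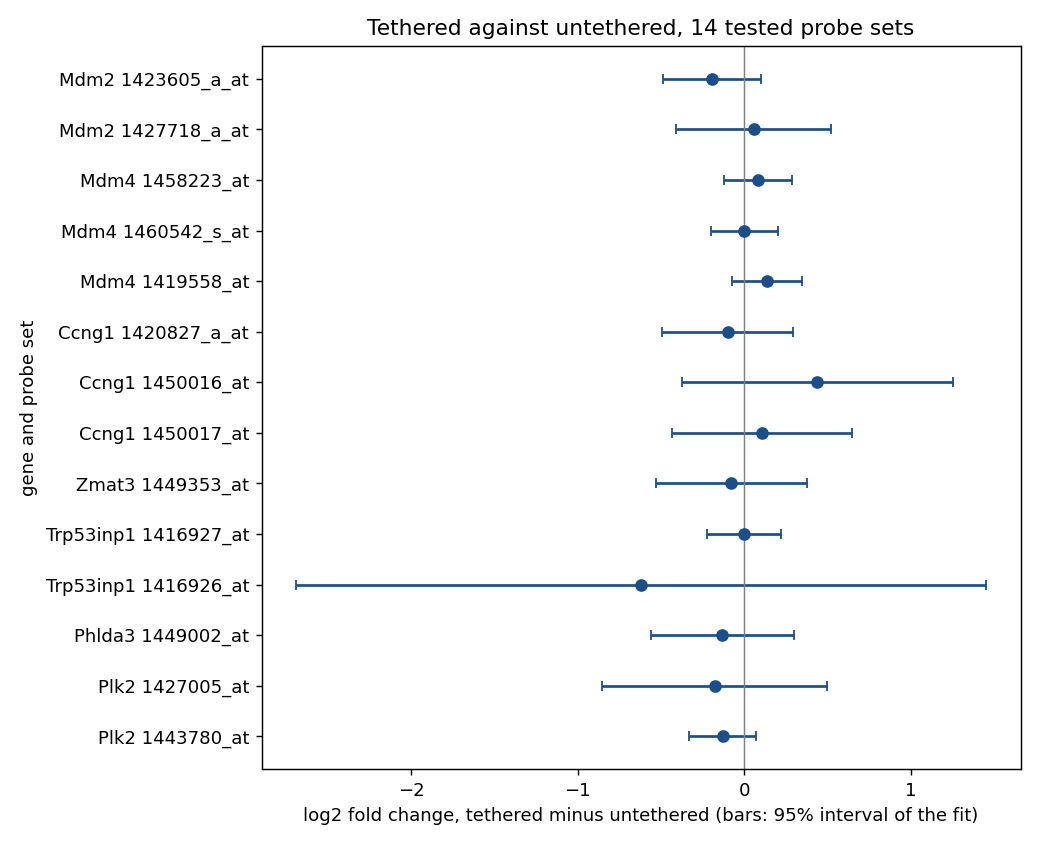
Log2 fold change, tethered minus untethered, of the 14 tested probe sets (points), with 95% intervals of the limma fit from 3 arrays a group (bars). All 14 intervals include 0, and Trp53inp1 1416926_at has the widest, from -2.69 to 1.45.

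The intervals set what 3 arrays against 3 could show. For the 3 tested Mdm4 probe sets, Trp53inp1 1416927_at and Plk2 1443780_at, differences beyond 0.35 (log2) in either direction lay outside the 95% interval. For Trp53inp1 1416926_at a change of 2 log2 units downward lay inside it. The sign of the log2 fold change turned for 7 of the 14 when 1 array was left out.

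The labels also number the arrays 1 to 3 in each group without saying what a number stands for. A limma F test of the number, with group as a covariate, called 0 of the 14 member probe sets at an adjusted p under 0.05, against 5.16% of all tested probe sets (1161). Before adjustment 7 of the 14 had a p under 0.05, against 22.6% of all. The count of 1161 was 0 without tethered replicate 3 and 0 without untethered replicate 3, and 561, 2979 and 2588 without tethered replicate 1, tethered replicate 2 and untethered replicate 2.

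Trp53inp1 1416926_at averaged 11.56 on the arrays numbered 1 and 9.55 on those numbered 2 and 3, a difference of 2.01 (log2; limma F test over 3 numbers, adjusted p = 0.068). It passed the threshold without untethered replicate 1 (adjusted p = 0.0088), untethered replicate 2 (0.021) or tethered replicate 2 (0.023), and after quantile normalization (0.044). It did not pass without tethered replicate 1, tethered replicate 3 or untethered replicate 3, with arrays centred on their medians, under both other filters or with both other treatments of low intensities. Mdm2 1427718_a_at was higher by 0.41 on the arrays numbered 1 (adjusted p = 0.061), and Plk2 1427005_at by 0.61 (adjusted p = 0.20). The 3 Ccng1 probe sets averaged lower on the arrays numbered 1, at -0.33, -0.47 and -0.35 (adjusted p = 0.19, 0.17 and 0.10), and Phlda3 stood at -0.39 (adjusted p = 0.19). On Ccng1 1450016_at and 1450017_at, untethered replicate 2 lay below untethered replicate 1. Without untethered replicate 2 the values of Ccng1 1450016_at and 1450017_at (-0.67 and -0.44) and of Plk2 1427005_at (0.78) passed; without tethered replicate 2, both Ccng1 values passed (-0.27 and -0.26).

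The other genes of the pathway were read through lists, with the brightest probe set standing for each gene. Across 11846 tested genes 58.8% of values lay below 0, with a median of -0.02. Of the p53 relatives, Trp63 was below the filter on all 4 of its probe sets. Trp73 (1427697_a_at) stood at 10.01, 10.00 and 10.04 in tethered cells, against 9.88, 9.85 and 9.91 in untethered cells, with a log2 fold change of 0.14 (SE 0.058; limma unadjusted p = 0.054, adjusted p = 0.999). The groups of this probe set did not overlap, as for 8.16% of all tested probe sets. The other tested Trp73 probe set, 1452325_at, stood at 0.03 (SE 0.066), with overlap. The probe set of Cdkn2a, the locus NIH3T3 cells lack, was brighter than only 17.1% of all probe sets and lay between 7.10 and 7.33 in tethered cells and between 7.44 and 7.54 in untethered cells.

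Of 26 tested genes that control p53, limma called 0; 16 values lay below 0 and the median was -0.03. Ep300, an acetyltransferase that acetylates p53, had the smallest unadjusted p of the list, 0.039. It stood at 10.11, 9.70 and 10.02 in tethered cells, against 10.19, 10.38 and 10.24 in untethered cells, without overlap (log2 fold change -0.33, SE 0.12). Atr, a kinase of the DNA damage checkpoint, stood at -0.20 (SE 0.095, without overlap) and Brd7, a bromodomain cofactor of p53, at -0.24 (SE 0.12). Ing1, a chromatin reader that binds p53, stood at 0.20 (SE 0.099).

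Of 9 tested cell cycle targets, 6 had values below 0 (median -0.07) and 0 were called. Cdkn1a, the p21 inhibitor of cyclin-dependent kinases, stood at 12.20, 12.06 and 12.16 in tethered cells, against 12.41, 12.41 and 12.13 in untethered cells. Only untethered replicate 3 fell among the tethered arrays, and the log2 fold change was -0.18 (SE 0.098; interval -0.42 to 0.06). The other tested Cdkn1a probe set, 1421679_a_at, stood at -0.07 (SE 0.10). Btg2, an antiproliferative gene that is also an early response gene, stood at 9.56, 9.62 and 9.72 in tethered cells, against 11.83, 10.38 and 9.69 in untethered cells. Its log2 fold change of -1.0 (SE 0.52) was -0.40 without untethered replicate 1. The other tested Btg2 probe set, 1416250_at, stood at -0.50 (SE 0.36). Plk3, a stress-responsive Polo kinase, stood at -0.36 (SE 0.15) and Ppm1d, a phosphatase that turns the p53 response off, at 0.15 (SE 0.10).

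Of 10 tested apoptosis targets, 9 had values below 0 (median -0.09) and 0 were called. Apaf1, the apoptosome scaffold, stood at -0.11 (SE 0.067), Trp53inp2 at -0.24 (SE 0.15), Siva1 at -0.23 (SE 0.18) and Bid, a BH3-only protein, at -0.30 (SE 0.30). Of 18 repair and metabolism targets, 14 had values below 0 (median -0.03) and 0 were called. Ddit4, an inhibitor of mTORC1, stood at -0.51 (SE 0.38), and it was highest on the arrays numbered 1, at 11.88 in tethered and 11.98 in untethered cells. Sco2, a cytochrome oxidase assembly factor, stood at -0.16 (SE 0.14), Sesn1, a sestrin, at -0.07 (SE 0.076) and Rrm2b, a ribonucleotide reductase subunit, at 0.07 (SE 0.082).

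Among the BCL2 family partners of Bax, 4 of 10 values lay below 0 (median 0.04) and 0 were called. Mcl1, which protects cells from death, stood at -0.28 (SE 0.11), and Bcl2l1, which encodes BCL-XL, at -0.07 (SE 0.10). The other tested Mcl1 probe sets ran from -0.52 (SE 0.19) to -0.08 (SE 0.20). Bad, a BH3-only protein, stood at 11.96, 11.96 and 12.01 in tethered cells, against 11.88, 11.79 and 11.86 in untethered cells, without overlap (0.13, SE 0.062). Bmf and Hrk, also BH3-only genes, stood at 0.10 (SE 0.1) and 0.08 (SE 0.081). Of the 4 Polo kinases, all had values below 0 (median -0.15). Plk4, the kinase of centriole assembly, stood at -0.12 (SE 0.064, without overlap) and the mitotic kinase Plk1 at -0.06 (SE 0.62). The other tested Plk4 probe set, 1419838_s_at, stood at -0.15 (SE 0.44), with overlap. Groups did not overlap for 8.16% of all tested probe sets, and Bad was named for its small p. None of the 4 kinases passed the adjusted threshold.

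**Figure D4:**
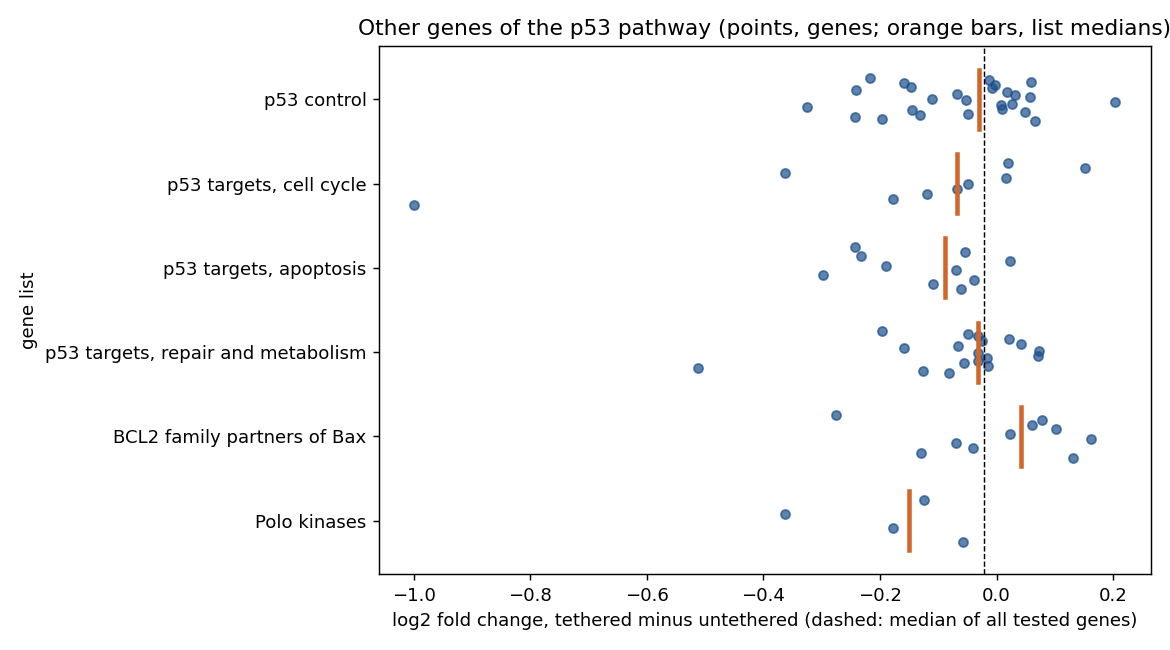
Log2 fold change, tethered minus untethered (horizontal axis), of each tested gene in 6 lists of the p53 pathway (points), with list medians (orange bars) and the median of all tested genes (dashed, -0.02). Medians lie between -0.15 and 0.04, and Btg2 at -1.0 is the lowest point.

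In the test of the array number, 2 of the 26 control genes, 2 of the 9 cell cycle targets, 4 of the 18 repair and metabolism targets and 0 of the 10 apoptosis targets passed (limma F test, adjusted p under 0.05; 5.16% of all probe sets). These genes were named after their values were seen. Lower on the arrays numbered 1 were Chek1, a checkpoint kinase (-0.84), Rfwd3, a ubiquitin ligase (-0.82), and the mitotic proteins Ckap2 (-1.01) and Gtse1 (-0.47). Epha2 (-1.0), Ak1 (-0.76) and the glutathione peroxidase Gpx1 (-0.64) were lower too, and Xpc, a DNA damage sensor, was higher (0.56). Plk1 was lower by this test as well (-1.56). Without tethered replicate 3 or untethered replicate 3 none of these genes passed, since the count over all probe sets was then 0. Atf3, a stress-induced transcription factor also chosen after its values were seen, stood at 11.64, 8.89 and 8.23 in tethered cells, against 11.75, 9.95 and 8.70 in untethered cells, the same order of the 3 arrays within each group as Trp53inp1 1416926_at. The cell cycle target Gadd45a, chosen in the same way, had that order too. It stood at 11.41, 7.99 and 7.65 in tethered cells, against 10.31, 8.89 and 8.04 in untethered cells. On the arrays numbered 1 it was higher by 2.72 (limma F test, adjusted p = 0.056).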

How the data were processed

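Biotin-labelled total RNA from 6 samples was run on Affymetrix arrays, per the labels' protocols. The authors deposited 1 intensity per probe set and array on a linear scale; summary software and scaling method: not given in the sources used here. Medians nearly agreed, so no further scaling was applied. Intensities under 16 were raised to 16 before taking log2. The 64 control probe sets were left out, and the 22518 probe sets with a mean above the median were tested.

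Names came from the platform annotation, updated by gene identifier to RefSeq (34945 probe sets with 1 symbol, 932 with several, 9160 unnamed). Limma 3.58.1 in R 4.3.3 fitted group alone with all 6 arrays, and, for array numbers, group plus number; tests were two-sided with Benjamini-Hochberg adjustment at 0.05. The number of arrays limits the precision. Both fits were run on simulated data with independent noise on each array, so the noise held no pattern shared by same-numbered arrays. The run required only that the mean estimate lay near the planted change.

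Named genes were all members, genes among the 4 of smallest p per list (brightest probe set), and Cdkn1a, Cdkn2a, Bcl2l1, Trp63 and Trp73; Atf3, Gadd45a, Cdh1 and the genes passing the number test were named after their values were seen. For genes most like a member in pattern, Mdm2 alone was used. Macrophage markers (3 tested, median 0.004), endothelial markers (3 tested, median 0.13) and fibroblast markers (9 tested, median -0.10) had 0 calls. The members and lists were chosen with earlier results of these data known. Alternatives were scaling, filter, floor, replicate block, arrays left out and gene means.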

Additional observations from a re-analysis of the deposited data

How the results depend on the processing

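Under every alternative run, 0 probe sets were called between tethered and untethered cells, members included; the smallest adjusted p was 0.698, without both arrays numbered 1. At an unadjusted p under 0.05 the count of 536 became 1782 with no filter, 159 with a filter at the upper quartile, 1232 with the replicate block and 1487 without both arrays numbered 1; with 1 array left out it ran from 237 to 1488. The 1161 probe sets called by array number were 645 with no filter and ran from 0 to 2979 with 1 array left out. The member count in that test was 1 after quantile normalization and ran from 0 to 4 with 1 array left out. Correlations of same-numbered arrays' deviations from their group means were 0.71, 0.075 and 0.71 for numbers 1, 2 and 3. The highest correlations across groups with arrays of other numbers were -0.19, 0.36 and 0.36. Same-numbered arrays were thus more alike for numbers 1 and 3, but not for number 2. The main fit did not take the numbers as pairs, and the labels do not say what a number stands for. As an alternative, the replicate block turned no sign.

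Signs turned for Ccng1 with the mean of its probe sets (0.15), for Trp53inp1 1416927_at after quantile normalization (0.036) and with arrays centred on their medians (0.0053), and without both arrays numbered 1 for Mdm4 1460542_s_at (-0.026) and Plk1 (0.0037). With 1 array left out, values that turned ran from -0.096 to 0.20 for Mdm2 1427718_a_at, -0.052 to 0.038 for Mdm4 1460542_s_at, -0.028 to 0.32 for Ccng1 1450017_at, -0.26 to 0.083 for Zmat3, -0.071 to 0.056 for Trp53inp1 1416927_at, -0.27 to 0.050 for Phlda3, -0.41 to 0.049 for Plk2 1427005_at, -0.12 to 0.013 for Bcl2l1 and -0.55 to 0.49 for Plk1. The cause was not tested. Of the 38 probe sets of members and named pathway genes, 9 turned in this way. Signal near background limits Perp and the other untested probe sets.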
